A study of Mus musculus with 2 samples.

Results

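Transcript levels were examined for array probes that map near Gata6 on chromosome 18 or near Tbx18 on chromosome 9. These are the 2 loci named in the genotype of Gata6cKO ureters. Members were the gene probes whose mm9 position lies within 10 Mb of the Gata6 probe or of the Tbx18 probe, with the Gata6 and Tbx18 probes themselves left out. The rule uses position alone, although the windows were proposed with earlier results of these data known. Of 39429 probes on the array, 387 were members, 166 around Gata6 and 221 around Tbx18. The Gata6 window is cut short on its lower side, where the outermost member lies 7.82 Mb away. All RNA came from ureters of NMRI mouse embryos at E14.5. Gata6cKO embryos were Tbx18(cre/+);Gata6(fl/fl): a cre recombinase sits in one copy of Tbx18 and both copies of Gata6 are floxed. Control embryos were Gata6(fl/?), so each carried a floxed Gata6 copy too, with the other copy not stated, and no cre is given for them. Gata6cKO is the name the labels give. The intended loss of Gata6, the cre and the Tbx18 copy that holds it go together in these genotypes and cannot be told apart. The cre is driven by the Tbx18 locus, which is active in the mesenchyme around the ureteric epithelium, whereas the RNA was taken from the whole dissected ureter. Whether each RNA was pooled from several embryos is not stated, so p-values measure only the spread between these samples, which may be technical.

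GATA6 is a zinc finger transcription factor and TBX18 is a T-box transcription factor of the undifferentiated mesenchyme that surrounds the ureteric epithelium and gives rise to its smooth muscle and connective tissue. Genes that lie close together on a chromosome are inherited together, and neighbouring genes can share enhancers and chromatin domains. The neighbours of Tbx18 include Rasgrf1, an imprinted gene for an exchange factor of RAS-type GTPases that is expressed mainly from the paternal copy in brain, and Nt5e, the cell surface enzyme that makes adenosine from AMP.

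The probe sequences around Tbx18 are shown because the results for several genes rest on single probes, and because probes of 1 gene did not always give the same value. Each array probe is 60 bases long, and its initial 30 bases are printed here from the scanner files, 5′ to 3′, all in lower case with no base singled out. The Rasgrf1 probes lie at chr9:89810512-89810571 and chr9:89911906-89915162 (mm9, plus strand). The wide span of the latter shows that it crosses a gap in the genome alignment. The Nt5e probe lies at chr9:88266616-88266675 (plus strand) and the Snap91 probe at chr9:86660081-86660140 (minus strand). The 3 probes of Cep162 lie at chr9:87086813-87086872, chr9:87087494-87087553 and chr9:87101778-87101837 (minus strand). An exon map on mm9 was not used here, so the place of each probe within its gene is not given.
Rasgrf1 probe A_52_P536022: gagacgcctgctttaactgtcttatgtatt
Rasgrf1 probe A_52_P671676: tgtgtcatcagatggcagatttaagaacct
Nt5e probe A_52_P574668: accgtttaaaattccaatccttttatgaag
Snap91 probe A_55_P2056021: ggtgtggagtacatttttccaatcacagaa
Cep162 probe A_52_P31011: caaggcagtaataaacatgtgggtttcacg
Cep162 probe A_55_P2133652: tagtcggaacttggatctgagtgaccacat
Cep162 probe A_55_P2133646: tttgatactggctgcctcggcagctggtga

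Each of 2 two-colour arrays held 1 Gata6cKO and 1 control RNA, both from males on the replicate 1 array and both from females on the replicate 2 array. Cy5 marked the Gata6cKO RNA on the male array and the control RNA on the female array, so sex and dye orientation changed together. Median raw signals ran from 224 to 442 and between 67.2% and 68.5% of spots were well above background. Of the 387 members, 265 were measured, that is, well above background in at least 1 genotype on both arrays: 117 of 166 around Gata6 (83 genes) and 148 of 221 around Tbx18 (109 genes). Values below are normalised intensities or log2 ratios of Gata6cKO over control, given with the moderated standard error of limma (n = 2 arrays). A probe passed at a Benjamini-Hochberg adjusted p under 0.05 over all 26200 measured probes. The fit has 1 residual degree of freedom, so it leans on the spread shared by all probes, and in simulated data more of its calls were false than the threshold states. Among all measured probes 1221 passed, which is 4.66%. Another rule asked for at least 1.5-fold on both arrays, which 1.56% of measured probes met.

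A larger share of probes passed around both loci than over the array as a whole. Around Gata6, 12 of 117 measured probes passed (10.3%), 6 lower and 6 higher in Gata6cKO, beside 2.43% lower and 2.23% higher among all measured probes. Around Tbx18, 19 of 148 passed (12.8%), of which 17 were lower and 2 higher. On the rest of chromosome 18 the share was 6.15% (34 of 553), and on the rest of chromosome 9 it was 4.59% (56 of 1220). By the 1.5-fold rule 5 probes counted around Gata6 (4.27%; 2 lower, 3 higher) and 7 around Tbx18 (4.73%; 5 lower, 2 higher), beside 0.733% lower and 0.828% higher among all measured probes. No test was made of these differences in share, since neighbouring probes share genes and the same 4 RNAs. With median centring in place of loess the split around Tbx18 was 4 lower and 2 higher, and around Gata6 3 lower and 2 higher. Under that setting 0.95% of all probes passed, and 133 of those 249 were lower. Under each of 9 other ways to process the values, the share that passed was larger in both windows than on the rest of the same chromosome and than over all probes.

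**Figure D1:**
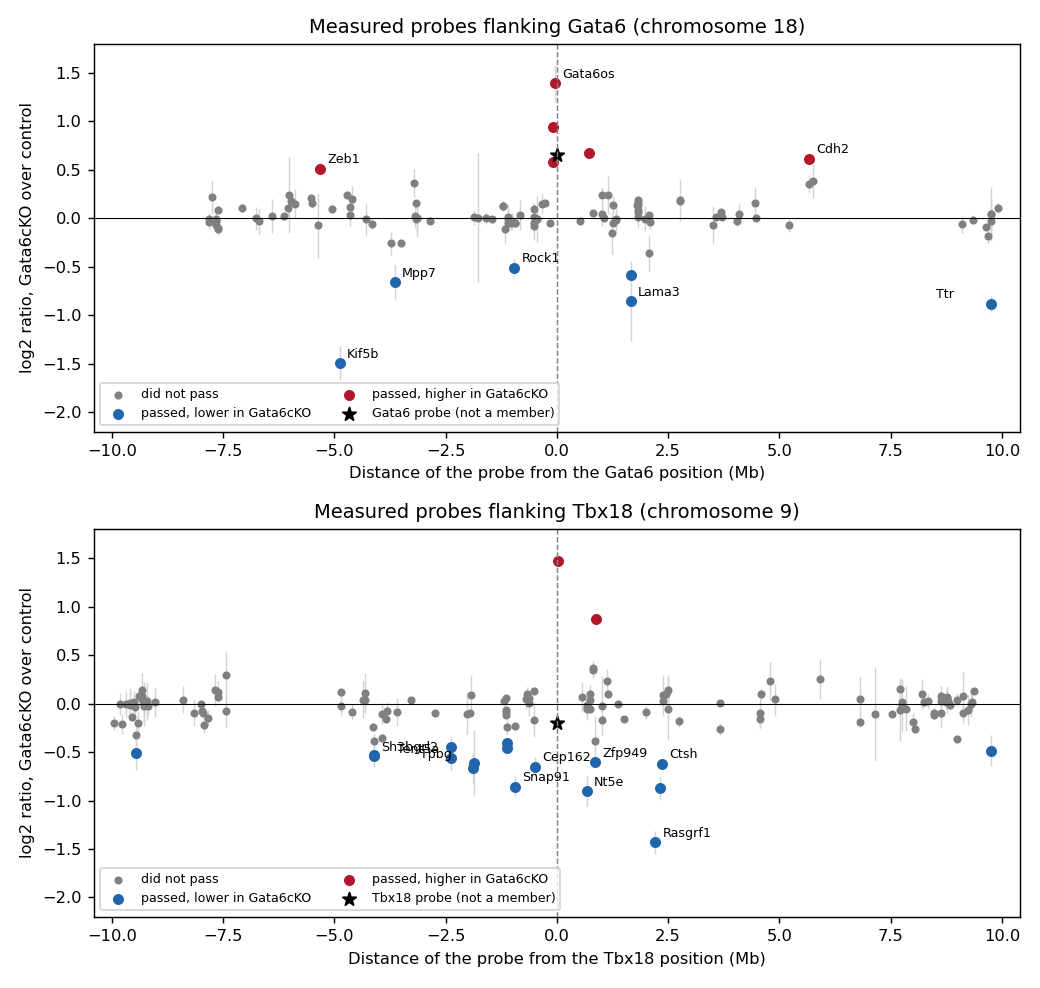
Log2 ratio of Gata6cKO over control (vertical axis) of each measured probe against its distance in Mb from the Gata6 position (top) or the Tbx18 position (bottom). Points are means of 2 arrays, grey bars join the values of the 2 arrays, coloured points passed at an adjusted p under 0.05, and the star is the probe of Gata6 or Tbx18. Most of the 17 lower probes around Tbx18 lie within 5 Mb of it, while the 12 probes that passed around Gata6 go both ways.

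The share that passed varied with distance in a different way in each window. Within 1 Mb of Gata6, 5 of 19 measured probes passed (26.3%), 4 of them higher. At 1 to 2 Mb the count was 2 of 31 (6.45%), at 2 to 5 Mb 2 of 30 (6.67%) and at 5 to 10 Mb 3 of 37 (8.11%), all close to the 6.15% of the rest of the chromosome. Around Tbx18 the raised share reached further out. There 6 of 23 probes passed within 1 Mb (26.1%), 4 of 19 at 1 to 2 Mb (21.1%) and 7 of 36 at 2 to 5 Mb (19.4%), but 2 of 70 at 5 to 10 Mb (2.86%). The bins hold few probes, so single genes with several probes weigh heavily in them. With 1 probe for each gene, 3 of 13 probes passed within 1 Mb of Gata6 (23.1%). Within 5 Mb of Tbx18, a zone chosen after seeing the data, 8 of 57 then passed and were lower (14.0%). With all probes it had been 15 of 78 (19.2%). With 1 probe for each gene, 465 of all 19798 probes passed as lower, and 4.55% passed in either direction.

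**Figure D2:**
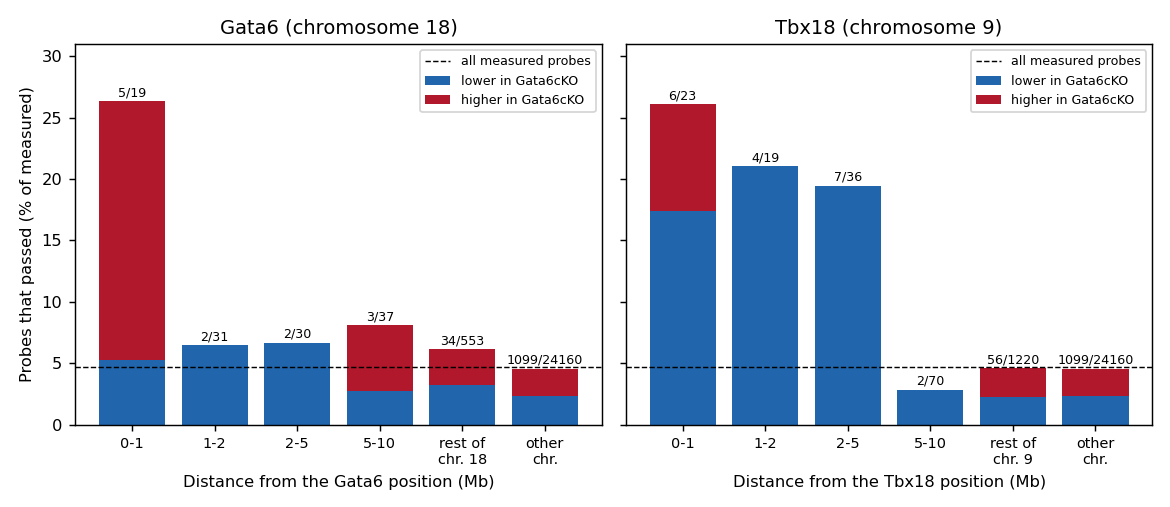
Share of measured probes that passed (percent, stacked by direction) by distance in Mb from the Gata6 position (left) and the Tbx18 position (right), with the rest of the same chromosome and the other chromosomes. Numbers above the bars give probes that passed over probes measured, and the dashed line is the share over all measured probes. Around Gata6 the bin within 1 Mb has the highest share (26.3%), and around Tbx18 the 3 bins within 5 Mb have 19.4% to 26.1%.

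The size of the log2 ratio also varied with distance around Tbx18. The median size was 0.068 around Gata6 and 0.096 around Tbx18, beside 0.069 over all measured probes. Across the 148 probes around Tbx18, size and distance had a Spearman rho of -0.31, with -0.34 on the lower and -0.28 on the upper side of the gene. Across the 117 probes around Gata6 the same rho was 0.016. These are descriptions across probes, which share genes and RNAs. Size also ran against intensity, with a rho of -0.22 around Tbx18 and -0.18 around Gata6, and its part in the result was not tested. The interquartile range of log2 ratios was 0.18 around Gata6, 0.21 around Tbx18 and 0.14 over all probes. The median log2 ratio itself was 0.01 around Gata6 and -0.02 around Tbx18. Within 5 Mb of Tbx18, a zone chosen after seeing the data, the median was -0.07. There 35 of 78 measured probes lay below 0 on both arrays and 15 lay above. Of all 26200 measured probes 6550 lay below on both arrays and 24.1% above. At 5 to 10 Mb from Tbx18, 18 of 70 lay below and 10 above.

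On the Gata6 side, the transcripts nearest to the gene were higher in Gata6cKO. The Gata6 probe itself read 22508 and 22457 in Gata6cKO and 12515 and 16355 in control (male, then female array), a log2 ratio of 0.65 ± 0.12 (limma adjusted p = 0.00333). This rise runs against a loss of the transcript, but whether the probe lies in the floxed part was not settled, so it does not check the labels. The probe is no member. Gata6os, the long non-coding RNA whose probe lies 36.0 kb from the Gata6 probe on the opposite strand, read 6728 and 8552 in Gata6cKO against 2920.4 and 2855 in control. Both Gata6cKO values lay above both control values, with a log2 ratio of 1.39 ± 0.12 (2.63-fold, limma adjusted p = 3.02e-06). The share of all measured probes without overlap between genotypes was not counted. The next transcript on that side is 9130001E16Rik, another long non-coding RNA, with 2 probes 0.078 and 0.081 Mb away. Its brighter probe read 487 and 528 in Gata6cKO and 255 and 272 in control, a log2 ratio of 0.94 ± 0.11 (limma adjusted p = 6.06e-05). Its dimmer probe read 139 and 144 in Gata6cKO, at least 1.32-fold above control, where it was not well above background (limma adjusted p = 0.00393).

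The next genes out had smaller log2 ratios. The nearest measured ones were an unnamed probe (log2 ratio -0.05), Mib1 (0.16), 4833420D23Rik (0.15), Snrpd1 (-0.01), Esco1 (0.02) and Greb1l (0.10), and no probe of these passed in limma, nor had any an unadjusted p under 0.05 (0 of 9 probes, where 11.2% of all measured probes had one). Mib1 is a ubiquitin ligase that Notch ligands need, Esco1 an acetyltransferase of cohesin, and Snrpd1 a core protein of the spliceosome. On the other side of Gata6, Rbbp8, a DNA end resection factor and the nearest protein-coding gene there in RefSeq order, had a log2 ratio of 0.05 ± 0.11. A further rise within 1 Mb was that of TC1616199, a transcript cluster with no RefSeq symbol 0.72 Mb away. It read 60127 and 59121 in Gata6cKO against 38849 and 35693 in control, a log2 ratio of 0.68 ± 0.11 (limma adjusted p = 0.00116).

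Elsewhere in the Gata6 window, Kif5b, Lama3, Ttr, Mpp7 and Rock1 fell, and Cdh2 and Zeb1 rose. The largest change in the window was a fall of Kif5b, the heavy chain of a kinesin motor, 4.88 Mb away. Its probe read 292 and 250.0 in Gata6cKO against 726 and 796 in control, a log2 ratio of -1.49 ± 0.12 (limma adjusted p = 1.51e-06). A further Kif5b probe, 4.84 Mb away, was not well above background in any RNA and was not tested (male array -0.15, female array 0.17). Lama3, the laminin alpha chain of epithelial basement membranes, fell at both of its probes 1.66 Mb from Gata6. Their log2 ratios were -0.85 ± 0.15 and -0.58 ± 0.11 (limma adjusted p = 0.00262 and 0.004). For the former the arrays differed, with 306 against 738 on the male array and 327 against 443 on the female array.

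Ttr, which encodes the thyroid hormone and retinol carrier transthyretin, lies 9.74 Mb from Gata6 near the edge of the window. It read 164 and 155 in Gata6cKO against 319.8 and 269.5 in control, a log2 ratio of -0.88 ± 0.11 (limma adjusted p = 1.38e-04). Mpp7, a scaffold protein of epithelial junctions, read 697 and 703 against 1242 and 981, a log2 ratio of -0.66 ± 0.12 (limma adjusted p = 0.00275). Its other probe was not well above background in Gata6cKO and had a log2 ratio of -0.26 that did not pass. Rock1, a kinase that acts below RHOA on the actin cytoskeleton, fell at 1 probe (-0.51 ± 0.11, limma adjusted p = 0.0123). That probe lies 0.96 Mb from Gata6 and is the 1 lower probe that passed within 1 Mb. The other Rock1 probe, 1.02 Mb away, had a log2 ratio of -0.04. In each of these genes at the probe that passed, both control values were higher than both Gata6cKO values. As these probes were picked because they passed, this is no separate support.

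Cdh2 and Zeb1 were the named protein-coding genes that rose around Gata6. Cdh2, the adhesion molecule N-cadherin of mesenchyme and nerve cells, read 6885 and 6689 in Gata6cKO against 4610.4 and 4259.8 in control. Its log2 ratio was 0.61 ± 0.11 (limma adjusted p = 0.00256), and its other probe, at 0.36 ± 0.11, did not pass. Zeb1, a zinc finger repressor of epithelial genes such as E-cadherin, read 14698 and 14287.5 against 9836 and 10486, a log2 ratio of 0.51 ± 0.11 (limma adjusted p = 0.0109). The groups did not overlap at either of the probes that passed, which is no separate support, as they were picked because they passed.

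The functional lists for this window were chosen with earlier results of these data known. By them, 2 of 5 adhesion and basement membrane genes fell (Lama3, Mpp7), 1 rose (Cdh2) and 2 did not pass (Svil, Jcad). Of all measured probes 2.43% passed as lower and 2.23% as higher. Of 5 genes of transport and sterol handling 2 fell (Kif5b, Ttr) and 3 did not pass, among them Npc1, the cholesterol exporter of lysosomes, at 0.14. Of 6 measured signalling genes Rock1 fell and 5 did not pass, including the Wnt receptor Fzd8 (0.01). Of 10 measured transcription and chromatin regulators Zeb1 rose and 9 did not pass, with Mkx at -0.06 and Ss18 at 0.01 and 0.06. The desmosomal cadherins lie at 9.04 to 9.68 Mb. Only 3 of 9 were measured (Dsg2, Dsc2 and Dsg1c), with log2 ratios between -0.18 and -0.01, and none passed with limma (0 of 4 probes also at an unadjusted p under 0.05).

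Around Tbx18 the changes ran mostly downwards and were spread over both sides of the gene. On its lower side 11 of 76 measured probes passed, all lower, and on its upper side 8 of 72 passed, 6 lower and 2 higher. The Tbx18 probe read 10576 and 9942 in Gata6cKO and 9928 and 14026 in control. The groups overlapped and its log2 ratio (male array 0.09, female array -0.50) did not pass (-0.20 ± 0.13; limma adjusted p = 0.810). The Gata6cKO RNA carries cre in 1 Tbx18 copy, and whether the probe detects transcript from that copy was not settled.

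The nearest measured transcript rose. D030062O11Rik, a clone name with no RefSeq symbol in the table used, is probed at chr9:87626691-87626750 (mm9, plus strand), 27.2 kb from the Tbx18 probe, which is on the minus strand. It read 395 and 367 in Gata6cKO against 146 and 129.7 in control, a log2 ratio of 1.47 ± 0.11 (2.77-fold; limma adjusted p = 9.17e-07). This was the strongest change in that window by size and the 4 values did not overlap between genotypes. How many of all measured probes lack overlap was not counted. The other rise was that of 9430037G07Rik, a long non-coding RNA 0.89 Mb away. It read 171 on both arrays in Gata6cKO, at least 1.59-fold above control, where it was not well above background (log2 ratio 0.87 ± 0.11; limma adjusted p = 1.40e-04).

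**Figure D3:**
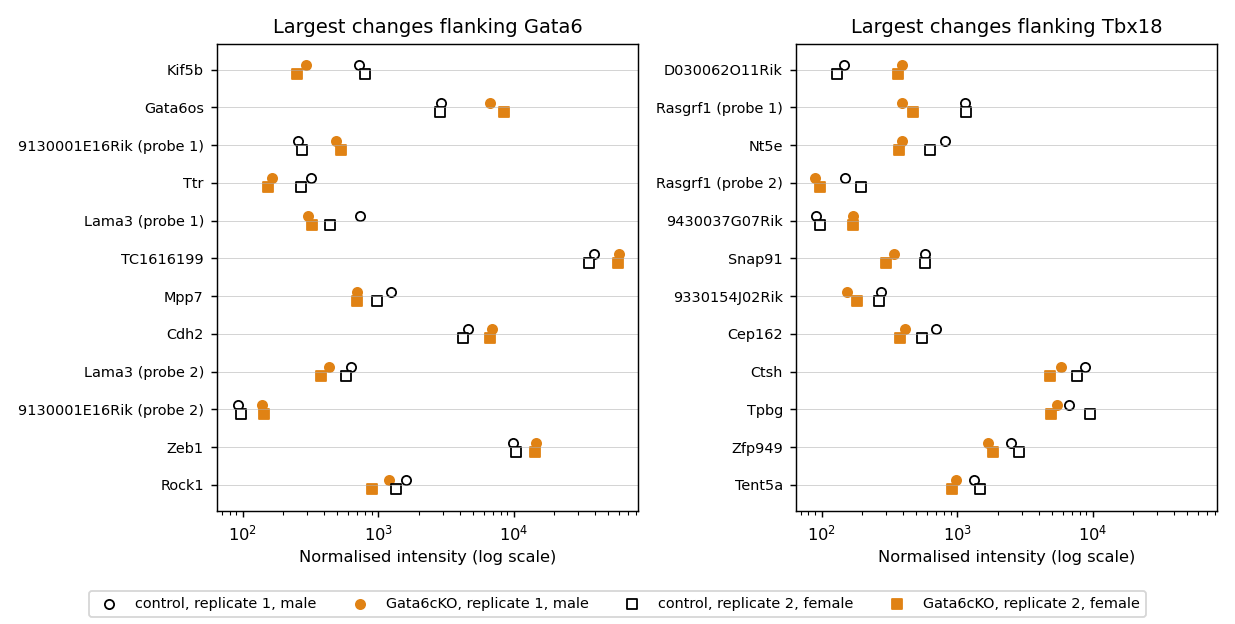
Normalised intensity (log scale) in each of the 4 RNAs for the 12 largest changes that passed around Gata6 (left) and around Tbx18 (right). Filled symbols are Gata6cKO, open symbols control, circles the male and squares the female array. Gata6cKO and control values do not overlap in any of these probes, which were picked because they passed. The gap is wide for Kif5b, Gata6os, D030062O11Rik and Rasgrf1 and narrow on 1 array for Tpbg.

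The largest falls around Tbx18 were those of Rasgrf1, Nt5e and Snap91. Rasgrf1, 2.21 Mb from Tbx18, read 390.0 and 471 in Gata6cKO against 1141 and 1171 in control at the probe A_52_P536022. This is a log2 ratio of -1.43 ± 0.11 (2.70-fold lower; limma adjusted p = 1.51e-06). Its other probe, A_52_P671676, was not well above background in Gata6cKO and was at least 1.58-fold lower there (limma adjusted p = 1.68e-04). Nt5e, 0.67 Mb away, read 390.0 and 375 against 812 and 632, a log2 ratio of -0.90 ± 0.12 (limma adjusted p = 1.53e-04). Snap91, a clathrin adaptor of synaptic vesicle recycling, lies 0.94 Mb away on the other side. It read 343 and 298 against 578 and 583, a log2 ratio of -0.86 ± 0.11 (limma adjusted p = 1.84e-04). All 4 of these probes fell on both arrays with no overlap between genotypes. As they were picked among the probes that passed, this is no separate support.

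Smaller falls stood at other genes of the window. Ctsh, the lysosomal protease cathepsin H, read 5863 and 4856 in Gata6cKO against 8810.0 and 7649 in control (-0.62 ± 0.11; limma adjusted p = 0.00235). Tpbg, a surface glycoprotein that dampens Wnt signalling, read 5495 and 4904 against 6644 and 9529. Its log2 ratio of -0.62 ± 0.14 (limma adjusted p = 0.0156) rested mostly on the female array, where it was -0.96, against -0.27 on the male array. Zfp949, a zinc finger gene 0.86 Mb away, fell on both arrays (-0.61 ± 0.11; limma adjusted p = 0.00286), and its other probe, at -0.39, did not pass. Tent5a, a poly(A) polymerase that stabilises mRNAs of secreted proteins, fell at both of its probes (-0.56 and -0.45; limma adjusted p = 0.00674 and 0.0299). Me1, the malic enzyme that supplies NADPH in the cytosol, fell at 2 of 3 probes (-0.46 and -0.41; limma adjusted p = 0.0214 and 0.0428), and the third was at -0.24. The clone transcript 9330154J02Rik, 1.88 Mb away, fell by 0.67 on the log2 scale (limma adjusted p = 0.00204). Sh3bgrl2 and Gm10639 were named after their values were seen. Sh3bgrl2 (4.11 Mb away) fell at 2 of 4 measured probes, by 0.54 and 0.53 on the log2 scale, and the others, at -0.39 and -0.24, did not pass. Gm10639 fell at 1 of 2 measured probes, and the other, at -0.32, did not pass.

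Cep162, a protein of centrioles and cilia and the nearest protein-coding gene on the lower side with a measured probe, gave unlike values at its 3 probes. The dimmest, A_55_P2133646, read 414 and 378 in Gata6cKO against 694 and 555 in control and passed (-0.65 ± 0.11; limma adjusted p = 0.00193). The brightest, A_55_P2133652, had a log2 ratio of 0.13 ± 0.11, and A_52_P31011 had -0.17 ± 0.12; neither passed. The probe that passed lies 498 kb from the Tbx18 probe and the others 512 and 513 kb. Among the other nearest genes no probe passed in limma or had an unadjusted p under 0.05 (0 of 7): Cyb5r4, a cytochrome b5 reductase, was at 0.01, Snx14, a sorting nexin, at -0.01, and Ripply2, a somite repressor of T-box factors, at 0.04. Of 56 genes with several measured probes 19 held probes of opposite sign, many of them near 0, and Cep162 was the 1 gene among them with a probe that passed.

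By the functional lists for the chromosome 9 window, 3 of 5 measured neuronal genes fell (Snap91, Rasgrf1, Clstn2) and none rose. Clstn2, a synaptic calsyntenin 9.75 Mb away, read 5671 and 5627 against 7119 and 8784 (-0.49 ± 0.12; limma adjusted p = 0.0222). Filip1 (-0.22) and Slc9a9 (-0.10) did not pass. Of 7 matrix and surface genes Nt5e and Tpbg fell and 5 did not pass, with the collagen gene Col12a1 at -0.10. Of 7 glutathione and fatty acid enzymes Me1 fell and 6 did not pass, although their median log2 ratio, taken at the brightest probe of each gene, was -0.20. The 3 phospholipid scramblases, 5 cell cycle and DNA damage genes, Zic1 and Bcl2a1d did not pass in limma, and of all their probes 1 of 2 for Zic1 (-0.26) had an unadjusted p under 0.05. The median of the neuronal list was -0.49, beside 0.00 over all measured probes. These lists too were chosen with earlier results of these data known, so their counts and medians are no separate support. Of all measured probes 2.43% passed as lower and 2.23% as higher.

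Genes that mark other cell types also moved between the genotypes. All 7 neuron markers rose (median log2 ratio 1.38). The log2 of their summed intensities, in which the brightest markers weigh most, was 14.497 to 14.56 in Gata6cKO and 13.11 to 13.37 in control. Of the neuronal list around Tbx18, Snap91, Rasgrf1 and Clstn2 fell while these neuron markers rose, and Filip1 and Slc9a9 did not pass. Of 12 urothelium markers 7 fell and none rose (median -0.75). The log2 of their summed intensities was 17.37 to 17.52 in Gata6cKO and 17.81 to 17.86 in control. Lama3 and Mpp7, which epithelia express, fell too, while the measured desmosomal cadherins Dsg2, Dsc2 and Dsg1c did not pass (-0.18 to -0.01). Of 7 smooth muscle markers 4 fell (summed 13.85 to 14.33 in Gata6cKO against 14.27 to 14.99 in control), of 5 skeletal muscle markers 4 rose and of 4 red cell markers 3 fell. Of 3 endothelium and 5 ureteric mesenchyme markers none passed in limma, with 0 and 2 at an unadjusted p under 0.05. All markers of these lists were measured, and Upk3b, in Gata6cKO, was the 1 marker not well above background in a genotype on either array. The part of these markers in the members' changes was not tested. In these bulk samples fewer cells of a type and less RNA per cell cannot be told apart.

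**Figure D4:**
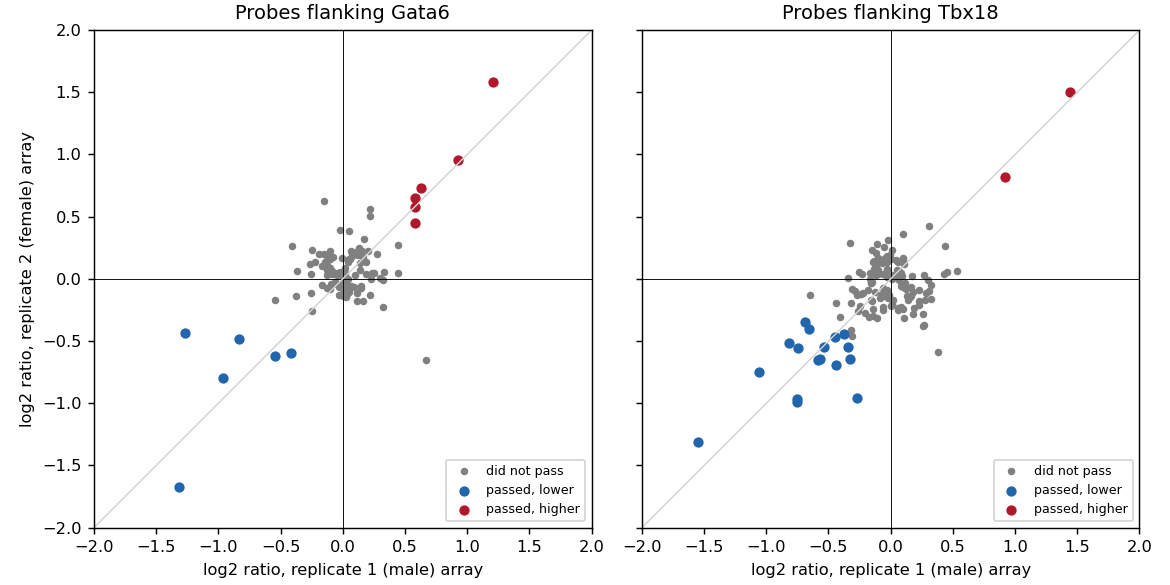
Log2 ratio of Gata6cKO over control on the male array (horizontal axis) against the female array (vertical axis) for the measured probes around Gata6 (left) and Tbx18 (right). Coloured points passed and the grey line marks equal values on both arrays. The 31 probes that passed have the same sign on both arrays, some well off the line, such as Lama3 (-1.27 and -0.44) and Tpbg (-0.27 and -0.96), while most others scatter around 0.

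A probe could pass although its arrays differed in size, as for Lama3 (-1.27 and -0.44) and Tpbg (-0.27 and -0.96). Passing needed a mean of the 2 arrays far from 0, which favours a shared sign. The shared sign of the probes that passed is therefore no separate support. Neither is a lack of overlap between genotypes at these probes, and its share over all measured probes was not counted. Over all measured members, 52.5% had the same sign on both arrays, beside 49.1% of all measured probes. Across probes the Spearman rho between arrays was 0.29 around Gata6 and 0.33 around Tbx18, beside 0.091 over all probes. By RefSeq type, 78 of 117 measured probes around Gata6 and 119 of 148 around Tbx18 are protein-coding. Of 6 probes that rose around Gata6, 3 are for 2 long non-coding RNAs, 1 has no RefSeq symbol and 2 are protein-coding, and the 2 that rose around Tbx18 are 1 long non-coding RNA and 1 with no RefSeq symbol. Of 6 that fell around Gata6 all are protein-coding, as are 16 of 17 that fell around Tbx18, and no test was made of these counts. Probes that did not pass had log2 ratios of at most 0.39 in size. At the limits of the windows, Trappc8 (0.11) and B4galt6 (-0.03) were just inside and Rnf125 (-0.24) and Rnf138 (0.05) just outside on the Gata6 side. On the Tbx18 side, Gclc (-0.20), Clstn2 (-0.49) and Slc25a36 (0.13) were just inside, and Klhl31 (0.04) and Nmnat3 (0.01) just outside.

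Of the 31 probes that passed, representing 25 genes, 10 also passed under each of the other fits in which they were measured. They were the probes of Kif5b, Ttr, Gata6os, Nt5e, Snap91, D030062O11Rik and 9430037G07Rik, the brighter probe of 9130001E16Rik and both probes of Rasgrf1. Median centring passed 11 of the 31 and ended the calls of Cep162, Ctsh, Cdh2, Zfp949, TC1616199 and 9330154J02Rik, which kept theirs under the other fits. It also ended those of Zeb1, Mpp7, Rock1, Clstn2, Tpbg, Tent5a, Me1, Gm10639 and 1 Sh3bgrl2 probe, which no filter on dim probes ended as well. Separate channels, with or without the replicate block, passed 22 of the 31 and ended the calls of Rock1, Clstn2, Tpbg, Gm10639, both Me1 probes that had passed, 1 Sh3bgrl2 probe, 1 Tent5a probe and 1 Lama3 probe, which no filter on dim probes ended too. The smaller fall of Me1 (-0.41) passed in 2 of 9 other fits only. The other Lama3 probe lost its call with median centring. No direction turned under any of them.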

How the data were processed

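Total RNA (150 ng input) of E14.5 ureters was measured on 2 arrays. Per the file headers, the deposited scanner files give the raw mean intensity and local background intensity of each spot, a processed intensity after detrending and lowess dye correction, its log10 ratio of Cy5 over Cy3, and 0 or 1 flags; the authors used Agilent Feature Extraction 10.7.3.1, per the submitters' processing notes. The deposited series values are a score: compared with the scanner files, it is the linear fold of Gata6cKO against control, with a minus sign for lower values. There were 0 unused per-sample columns.

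Raw intensities were corrected with normexp (offset 50) and normalised by loess within each array in limma 3.58.1 (R 4.3.3), and every ratio was set as Gata6cKO over control. A probe was measured if the channel of either genotype had 3 or more of 4 spots well above background on both arrays, which kept 26200 of 39429. Log2 ratios were fitted with lmFit and eBayes (1 residual and 14.2 prior degrees of freedom, prior SD 0.160) and adjusted over all measured probes. The fit was tested on simulated data. Where a genotype was not well above background, a change is a bound: the brighter mean over the lowest signal well above background or the dim probe's own, whichever was higher. Intensities per channel are open to dye bias on a single array. Positions are the files' mm9 coordinates, and 389 probes have none. Symbols were updated with RefSeq names (GRCm38.p6): 28746 probes matched by accession, 3074 by symbol and 222 by synonym.

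Named were the 8 nearest measured genes, up to 12 largest changes that passed, probes at the window limits and the listed genes. Members and lists were chosen with earlier results of these data known. Other settings tried were processed intensities, median centring, no or a stricter filter, 1 probe for each gene, an intensity trend, separate channels with and without the replicate block, the deposited series values, and windows of 5 and 2 Mb. Python 3.11.15 with pandas 2.3.3 and matplotlib 3.10.9 made counts and plots.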

Additional observations from a re-analysis of the deposited data

Results flagged for a closer look

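In 3 of the named genes a probe had log2 ratios of at least 0.2 in opposite directions on the 2 arrays, so that the male and the female pair moved apart. The difference was not tested, and sex, replicate and dye orientation changed together. For Bcl2a1d, a copy of an anti-apoptotic BCL2 relative near Tbx18, the male array minus the female array was -0.61 (-0.32 and 0.29). For Chst2, a sulfotransferase near Tbx18, it was 0.64 (0.26 and -0.38), and the other Chst2 probe did not show it (0.27 and 0.03). For Snrpd1, near Gata6, it was -0.48 (-0.25 and 0.23).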

How the results depend on the processing

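Values under other settings are given in the order of the results. Around Gata6, 12 of 117 probes passed (10.3%), beside 4.66% of all probes. With median centring it was 5 of 117 (4.27%), beside 0.95% of all probes. A window of 2 Mb held 7 of 50 (14.0%). Within 1 Mb of Gata6 the count of 5 of 19 became 2 of 19 with median centring (10.5%). With 1 probe for each gene it was 3 of 13 (23.1%), beside 4.55% of all probes. Around Tbx18, 19 of 148 probes passed (12.8%). A window of 2 Mb held 10 of 42 (23.8%). With median centring it was 6 of 148 (4.05%, beside 0.95% of all probes), and with no filter 11 of 221 (4.98%, beside 1.58%). With 1 probe for each gene it was 11 of 109 (10.1%, beside 4.55%). With separate channels and the replicate as a random block it was 12 of 148 (8.11%, beside 2.55%). With no replicate block it was also 12 of 148 (8.11%, beside 2.50%). Within 5 Mb of Tbx18, a zone chosen after seeing the data, 15 of 78 probes passed as lower (19.2%), beside 2.43% of all probes. With median centring it was 4 of 78 (5.13%), beside 133 of all 26200 probes that passed as lower. With no filter it was 9 of 111 (8.11%), beside 303 of all 39429. With 1 probe for each gene it was 8 of 57 (14.0%), beside 465 of all 19798. On 1 array alone, 8 to 10 of 117 probes around Gata6 were at least 1.5-fold (6.84% to 8.55%). Around Tbx18, 12 of 148 were on either array (8.11%), beside 3.02% to 3.24% of all measured probes. Here fewer arrays had to meet the rule. The median log2 ratio minus that of the rest of the chromosome was 0.00828 around Gata6 (0.029 to 0.049 without 1 replicate) and -0.022 around Tbx18 (-0.073 in a window of 5 Mb, -0.053 in one of 2 Mb, -0.088 to -0.049 without 1 replicate). Over all probes 249 passed with median centring and 1673 with the deposited series values. The cause of these moves was not tested. Of 1044 values of named probes under other fits, 981 stayed on their side of the threshold, 56 no longer passed, 7 newly passed and 0 reversed. With 1 array left there are no residual degrees of freedom and so no test. Signal over background limits dim probes: 122 members were not measured.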

Other observations

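Among members outside the named genes, 2 probes had large log2 ratios of opposite sign on the arrays and were picked after their values were seen. A probe of Ccny, a cyclin of the cell membrane 1.77 Mb from Gata6, read 820.2 in Gata6cKO and 515 in control on the male array, but 462 and 728 on the female array (log2 ratios 0.67 and -0.66). The non-coding Rn4.5s probe, 7.14 Mb from Tbx18, had log2 ratios of 0.38 and -0.59. In both, the RNA in Cy5 was the brighter on each array, and sex and dye orientation cannot be told apart here.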
